A study of Mus musculus with 4 samples.

Results

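Chemokines are small secreted proteins that attract leukocytes and other cells by binding receptors coupled to G proteins. They are named for the spacing of their first cysteines, and myoblasts make several of them, which are known to draw monocytes and neutrophils into injured muscle and, for CXCL12, to guide cells that carry the receptor CXCR4. The 9 genes described here were fixed by name: Ccl2, Ccl7, Ccl5, Cxcl1, Cxcl5, Cxcl10, Cxcl12, Cxcl16 and Cx3cl1. Values of 8 of them were found among the 13824 gene symbols of the study, and Cxcl16 was not analysed here.

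The libraries were made from C2C12, a mouse myoblast line that forms myotubes in culture when serum is lowered, after 30 nM siRNA given with Lipofectamine and 48 h in differentiation medium with horse serum. The siRNA was a scrambled sequence in 2 libraries (scrambled) and was directed against Mef2a, the gene of a transcription factor of muscle differentiation, in the other 2 (siMEF2A). All cells were of 1 line and had been transfected, and no untreated cells were analysed here. Nothing in the labels says that libraries of a group came from separate cultures, and the p-values then cover no more than library-to-library spread, part of which may be technical. The question was which genes differ in differentiating myoblasts when MEF2A is silenced.

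Levels are given in FPKM (the fragments of a transcript divided by its length and by the library's total), summed over a gene's listed transcripts, so that levels of genes of different length can be set side by side. Mef2a itself was at 25.8 and 32.2 FPKM under scrambled siRNA, against 12.7 and 14.3 FPKM in siMEF2A, and fell to 46.5% (limma adjusted p = 3.35e-05). Sequencing depth was estimated relative to scrambled replicate 1, from the FPKM ratio that genes shared most often among 600 genes with low values. It came to 1.05, 0.849 and 0.849 in the other 3 libraries. Only 13, 17 and 11 of the 600 genes shared that ratio to within 0.3%, and absolute depth was unknown. Of 7 markers of differentiating muscle, 6 were listed and tested, all were lower in both siMEF2A libraries, and 5 fell (limma, adjusted p under 0.05). Over all genes tested 9.14% were lower without overlap and 1.32% were called lower. Myog, the gene of myogenin, was at 83.4 FPKM in siMEF2A against 132 FPKM in scrambled. Desmin (Des) was at 71.0% of scrambled and did not pass. Of 12 leukocyte markers only Cd68, Cd14 and Lyz2 were listed, with a summed level of 16.0 to 18.2 FPKM in scrambled and 19.0 to 20.3 FPKM in siMEF2A, most of it from Cd14, and no lymphocyte or endothelial marker was listed. Of 5 fibroblast markers 4 were tested and 0 passed. Dcn was at 123% and Pdgfra at 134% of scrambled with no overlap of the groups, and Lum at 83.9% and Col1a1 at 80.5% with overlap. Over all genes tested 18.8% were higher without overlap. The summed fibroblast level was 225 and 314 FPKM with scrambled siRNA and 316 and 327 FPKM in siMEF2A, and 0 of 4 markers of proliferating cells passed. In bulk RNA, fewer cells of a type and less RNA per cell cannot be told apart, and whether the muscle or fibroblast markers have a part in the chemokine values below was not tested.

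The class of each chemokine can be read in its coding sequence, shown here for 1 gene of each kind to make the family names visible. The bases are from the GENCODE M21 transcript with the highest FPKM, run 5′ to 3′, and the codons of the first cysteine pair are in capitals.
Ccl2: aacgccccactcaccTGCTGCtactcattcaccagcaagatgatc
Cxcl1: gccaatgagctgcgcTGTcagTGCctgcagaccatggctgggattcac
Cxcl12: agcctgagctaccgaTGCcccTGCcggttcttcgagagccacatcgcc
Cx3cl1: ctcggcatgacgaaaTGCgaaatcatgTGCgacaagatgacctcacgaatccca

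In Ccl2 the cysteine codons are adjacent, at codons 34 and 35, and the same holds for Ccl7 and Ccl5, which makes them CC chemokines. Cxcl1 has 1 codon between them, as do Cxcl5, Cxcl10 and Cxcl12, the CXC chemokines. Cx3cl1 has 3 codons between them, and at 395 codons it is the longest of the coding sequences, since fractalkine is made as a membrane protein with its chemokine part on a stalk. Cxcl1 and Cxcl5 also hold, just before the first cysteine, codons for glutamate, leucine and arginine, the ELR motif known from chemokines that bind CXCR2 on neutrophils. That motif was not found there in Cxcl10 or Cxcl12, which are known to bind CXCR3 and CXCR4.

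Chemokine RNA ran from 1.64 to 188 FPKM as gene means in these cells. Ccl2 was highest, with a mean of 188 FPKM over the 4 libraries, at rank 454 of 11824 genes tested. Ccl7 and Cxcl5 followed at 121 and 120 FPKM, then Cxcl12 at 80.4 and Cxcl1 at 72.0 FPKM. The remaining genes were far lower, with Ccl5 at 6.81, Cx3cl1 at 4.36 and Cxcl10 at 1.64 FPKM. Over the 4 libraries the ranges of Ccl7 and Cxcl5 overlapped, and so did those of Cxcl12 and Cxcl1. The other neighbours in this order did not overlap, although the lowest Ccl2 value (146 FPKM) was just above the highest of Ccl7 (145 FPKM).

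**Figure D1:**
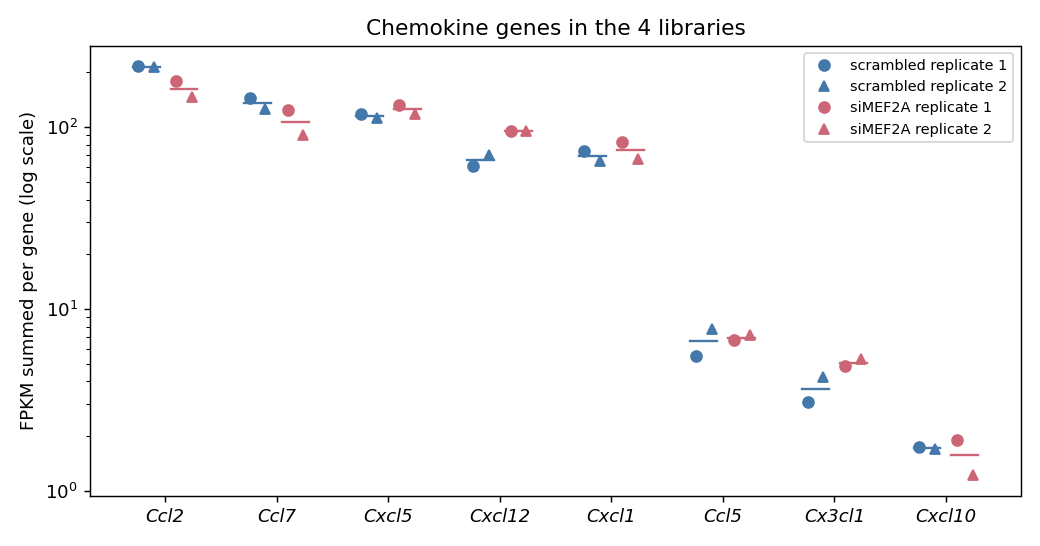
FPKM summed per gene (log scale) of the 8 chemokine genes in each of the 4 libraries, ordered by mean level; circles are replicate 1, triangles replicate 2, and short lines are group means. Ccl2 and Ccl7 lie lower and Cxcl12 and Cx3cl1 higher in both siMEF2A libraries, while the groups overlap for the other 4 genes.

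None of the 8 chemokine genes passed the test between siMEF2A and scrambled (limma on log2(FPKM + 1), p adjusted by Benjamini and Hochberg's method over 11824 genes, threshold 0.05). With a replicate block 3 of the 8 passed, Ccl2, Cxcl12 and Cx3cl1 (limma adjusted p = 0.0438, 0.00736 and 0.0322), and 4.30% of all genes tested were called. The labels do not say that equal replicate numbers mark a shared culture or day. Without the block, 3 of the 8 had an unadjusted limma p under 0.05, Cxcl12, Cx3cl1 and Ccl2, against 755 of the 11824 genes tested (6.39%). The genes were chosen with earlier results of these data known. No excess over all genes can therefore be read from this count or those below. Over all genes tested, 1.73% were called, 0.406% higher and 1.32% lower. Of these calls 76.5% were lower, against 90.4% under median-ratio and upper-quartile scaling, 90.7% under quantile normalization and 88.5% after centring by transcript length. The libraries of the groups did not overlap for 4 of the 8, of which Cxcl12 and Cx3cl1 were higher and Ccl2 and Ccl7 lower in siMEF2A. Over all genes tested 18.8% were higher and 9.14% lower without overlap. The median log2 difference of the 8 was 0.084, against 0.045 over all genes tested. Log2 differences below are siMEF2A minus scrambled on the log2(FPKM + 1) scale, on which the change of a weakly expressed gene is understated.

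The monocyte-attracting CC genes Ccl2 and Ccl7 had lower values in siMEF2A without passing the test. Ccl2 (ENSMUSG00000035385, mm10 chromosome 11, 82035571 to 82037453, plus strand), which encodes MCP-1, the main ligand of CCR2, was at 216 and 214 FPKM under scrambled siRNA, against 178 and 146 FPKM in siMEF2A. The scrambled libraries were nearly equal, and both siMEF2A libraries lay below them. The mean went from 215 ± 1.55 to 162 ± 23.2 FPKM (SD, n = 2 each), 75.5% of scrambled. The log2 difference of -0.41 (SE 0.18) did not pass (limma adjusted p = 0.598), with a 95% interval of 0.583 to 0.969 times before any allowance for the number of genes. This and the intervals below are ratios of FPKM + 1, narrower than those of FPKM where the level is low. Without siMEF2A replicate 2 it was -0.27. Most of the signal, 94.98% to 96.1% per library, belonged to the protein-coding transcript, and the rest to a transcript with a retained intron. Gm17268 overlaps the gene on the opposite strand, but no 50-base stretch of the Ccl2 transcript occurred there.

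Ccl7 (ENSMUSG00000035373, chromosome 11, 82045712 to 82047525, plus strand), whose product MCP-3 also binds CCR2, starts 10141 bases from the start of Ccl2. It was at 145 and 125 FPKM under scrambled siRNA, against 123 and 90.0 FPKM in siMEF2A. The groups did not overlap, but scrambled replicate 2 and siMEF2A replicate 1 differed by less than the libraries within either group. The means were 135 ± 13.9 and 107 ± 23.7 FPKM (SD, n = 2 each), with a log2 difference of -0.35 (SE 0.18, limma adjusted p = 0.834), which was -0.13 without siMEF2A replicate 2 and -0.58 without siMEF2A replicate 1. The ratio of Ccl2 to Ccl7 ran from 1.44 to 1.70 over the 4 libraries, and the scrambled and siMEF2A ratios overlapped.

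The same chromosome 11 cluster holds Ccl8, which encodes another MCP chemokine and starts 79614 bases from Ccl2. Ccl8 was not among the 9 genes but was fixed as one of 30 other chemokine ligands to be read beside them. It was at 236 and 192 FPKM under scrambled siRNA, against 158 and 116 FPKM in siMEF2A, a level like that of Ccl2. Its mean was 64.1% of scrambled, and the log2 difference was -0.65 (SE 0.19, limma adjusted p = 0.0771). The outcome changed with the setting. Among settings that kept all 4 libraries, Ccl8 passed at a minimum mean of 5 FPKM (limma adjusted p = 0.0496). With protein-coding transcripts alone (0.0427) and with the replicate block (0.00152) it passed too. It did not pass under median-ratio (0.255), upper-quartile (0.282) or quantile (0.243) scaling. Nor did it pass without a filter (0.156), with the most abundant transcript alone (0.147) or after centring by transcript length (0.152). The log2 difference was -0.80 without scrambled replicate 2 and -0.43 without siMEF2A replicate 2. Ccl11, the eotaxin gene between them, was at 2.14 and 2.47 FPKM under scrambled siRNA, against 2.78 and 1.74 FPKM in siMEF2A, so its groups overlapped. In the summed FPKM of the 18 listed chemokine ligands, Ccl2, Ccl7 and Ccl8 made up 61.3% and 60.0% in scrambled and 51.2% and 48.6% in siMEF2A. This set was not fixed beforehand and leaves out Ccl11, and its share also depends on the other ligands in the sum.

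Ccl5 (ENSMUSG00000035042, chromosome 11, 83525778 to 83530518, minus strand) encodes RANTES, a chemokine that T cells and other cells release. It was at 5.54 and 7.75 FPKM under scrambled siRNA, against 6.73 and 7.21 FPKM in siMEF2A. Both siMEF2A libraries lay between the scrambled ones. The log2 difference was 0.074 (SE 0.16, limma adjusted p = 1.0), with a 95% interval of 0.843 to 1.31 times.

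The neutrophil attractants Cxcl5 and Cxcl1, which lie in 1 cluster on chromosome 5, differed little between the groups. Cxcl5 (ENSMUSG00000029371, 90759360 to 90761624, plus strand) was at 118 and 113 FPKM under scrambled siRNA, against 133 and 118 FPKM in siMEF2A. Cxcl1 (ENSMUSG00000029380, 90891241 to 90893115, plus strand), the gene of KC, was at 74.2 and 64.8 FPKM under scrambled siRNA, against 82.4 and 66.6 FPKM in siMEF2A. For both genes replicate 1 was the higher library of each group, and the groups overlapped. The log2 differences were 0.12 (SE 0.17) for Cxcl5 and 0.094 (SE 0.16) for Cxcl1, each with a limma adjusted p of 1.0. Their 95% intervals ran from 0.854 to 1.37 times and from 0.845 to 1.35 times. The ratio of Cxcl5 to Cxcl1 ran from 1.59 to 1.76 over the libraries. Of 50-base stretches of the Cxcl5 transcript, 3.08% also occurred in transcripts of other genes, so a small part of its fragments could be assigned elsewhere, and in Cxcl1 there were none.

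Ppbp and Pf4, genes of platelet chemokines in the same cluster, were at 7.84 and 3.96 FPKM over the 4 libraries and did not pass (limma adjusted p = 1.0 for each). Cxcl3 had a mean of 0.213 FPKM, under the minimum for a test.

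Cxcl10 (ENSMUSG00000034855, chromosome 5, 92346638 to 92348889, minus strand) encodes IP-10, an interferon-induced ligand of CXCR3 on T cells. It was at 1.74 and 1.70 FPKM under scrambled siRNA, against 1.92 and 1.22 FPKM in siMEF2A. The siMEF2A libraries lay on both sides of the scrambled ones. The log2 difference was -0.096 (SE 0.15, limma adjusted p = 1.0), with a 95% interval of 0.754 to 1.16 times for FPKM + 1, in which the added 1 is a large part at this level. With a pseudocount of 0.1 the log2 difference was -0.16. The gene overlaps Art3, which is on the opposite strand, and 8.04% of 50-base stretches of its transcript were antisense to transcripts of another gene, so at this level its value is uncertain where strand was not used. Of 24 interferon pathway genes, 21 were tested, 0 passed limma, 4 of the 21 had an unadjusted p under 0.05, against 6.39% over all genes tested, and the list's median log2 difference was -0.12 against 0.045 over all genes tested. The smallest p belonged to the antiviral GTPase gene Mx2, at 68.7% of scrambled (log2 difference -0.46, limma adjusted p = 0.159), followed by Irf7 at 73.5% and Isg15 at 76.7%.

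Cxcl12 (ENSMUSG00000061353, chromosome 6, 117168535 to 117181367, plus strand), the gene of SDF-1, had the largest log2 difference of the 8. It was at 61.2 and 70.2 FPKM under scrambled siRNA, against 94.97 and 95.4 FPKM in siMEF2A. The siMEF2A libraries were nearly equal, and both lay above scrambled. The mean went from 65.7 ± 6.35 to 95.2 ± 0.325 FPKM (SD, n = 2 each), 145% of scrambled. With a log2 difference of 0.53 (SE 0.16) it had an unadjusted p of 0.00250 and a limma adjusted p of 0.111, so it did not pass. Its 95% interval was 1.15 to 1.82 times, before any allowance for the number of genes or for its being the largest difference. Leaving out each library in turn gave log2 differences of 0.43 to 0.63.

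Ccl2 was at 3.53 and 3.04 times the FPKM of Cxcl12 in scrambled and at 1.88 and 1.53 times in siMEF2A, a pair chosen after the values were seen. Among the 18 listed ligands, Cxcl12 went from 6.28% and 7.93% of the summed FPKM in scrambled to 10.6% and 13.2% in siMEF2A. That sum was itself 974 and 885 FPKM with scrambled siRNA and 898 and 723 FPKM in siMEF2A, so the share moved with both Cxcl12 and the total.

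Cxcl12 is spliced into isoforms that share their chemokine part and differ at the end. The files listed 4 of its transcripts. The ends of the protein-coding ones, which show how the isoforms part, are given 5′ to 3′ from the GENCODE M21 transcripts, with the coding bases after the first 267, which all share, in capitals up to and including the stop codon.
Cxcl12-202: tacctggagaaagctttaaacaagTAA
Cxcl12-203: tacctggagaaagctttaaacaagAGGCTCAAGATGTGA
Cxcl12-201: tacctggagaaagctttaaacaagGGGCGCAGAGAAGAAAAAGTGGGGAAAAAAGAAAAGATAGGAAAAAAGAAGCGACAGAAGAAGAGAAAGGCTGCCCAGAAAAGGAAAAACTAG

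Cxcl12-202, with 89 codons the alpha form, made up most of the gene's FPKM in each library. It was at 45.6 and 53.0 FPKM under scrambled siRNA, against 72.5 and 73.9 FPKM in siMEF2A, 149% of scrambled. Cxcl12-203, the beta form with 93 codons, was at 9.48 and 11.9 FPKM under scrambled siRNA, against 14.6 and 14.5 FPKM in siMEF2A, 136% of scrambled. Cxcl12-201, the gamma form with 119 codons and a long basic tail, was at 3.43 and 2.81 FPKM under scrambled siRNA, against 4.11 and 3.87 FPKM in siMEF2A, 128% of scrambled. A retained-intron transcript was at 2.74 and 2.48 FPKM under scrambled siRNA, against 3.70 and 3.16 FPKM in siMEF2A. Each of the 4 was higher in both siMEF2A libraries, as was their sum, and 18.8% of all genes tested were higher without overlap. The 4 are parts of the same gene's signal and not separate results. The share of the alpha form was 74.4% and 75.5% in scrambled and 76.4% and 77.4% in siMEF2A. Isoform values are the authors' estimates from reads that the transcripts largely share. Of the 4 only Cxcl12-202 was tested alone, in the run on the most abundant transcript of each gene. It did not pass there (log2 difference 0.57, limma adjusted p = 0.141).

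**Figure D2:**
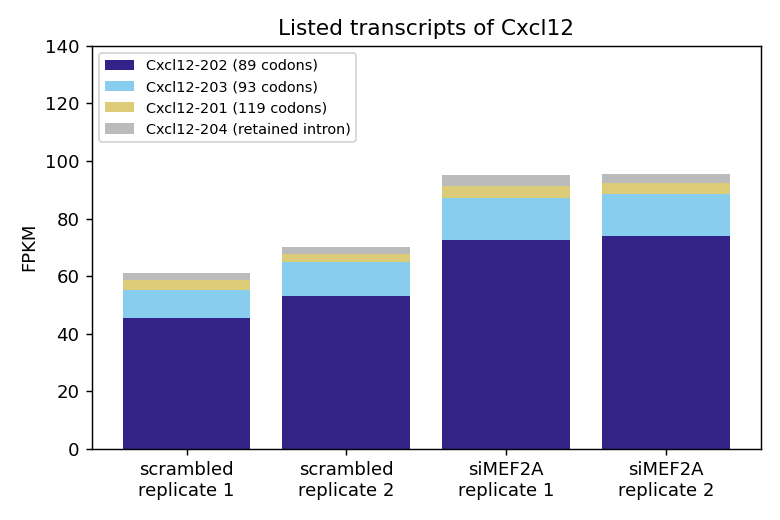
FPKM of the 4 listed Cxcl12 transcripts, stacked, in each library; the bar height is the gene's summed FPKM. The sum is 61.2 and 70.2 in scrambled and 94.97 and 95.4 in siMEF2A, and Cxcl12-202 is the largest part of every bar.

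Among the receptors, 5 of 23 were listed and 3 were tested, and 0 passed limma, with 0 at an unadjusted p under 0.05. Cxcr4, the signalling receptor of CXCL12, was at 21.8 and 20.2 FPKM under scrambled siRNA, against 20.1 and 19.1 FPKM in siMEF2A (log2 difference -0.097, SE 0.15, limma adjusted p = 1.0). The scavenger receptor Ackr3, listed as Cxcr7, was at 2.22 FPKM under scrambled siRNA, against 2.55 FPKM in siMEF2A, and Ackr4, listed as Ccrl1, at 1.34 and 1.36 FPKM (limma adjusted p = 1.0 for both). Ccr7 and Ccr10 had means of 0.432 and 0.516 FPKM, under the minimum for a test.

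The 3 genes whose centred log2 values over the 4 libraries lay nearest to those of Cxcl12 were Vdr, the vitamin D receptor gene, Adh1, an alcohol dehydrogenase gene, and Lbh, a gene of a transcription cofactor. Their Euclidean distances from Cxcl12 were 0.024, 0.037 and 0.044. By this choice each was higher in both siMEF2A libraries, at 160%, 181% and 146% of scrambled, which is no separate result. None passed the limma test (adjusted p = 0.0717, 0.0619 and 0.0797). With 4 libraries such a likeness describes these values only.

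Cx3cl1 (ENSMUSG00000031778, chromosome 8, 94772009 to 94782427, plus strand), the fractalkine gene, was at 3.07 and 4.22 FPKM under scrambled siRNA, against 4.86 and 5.30 FPKM in siMEF2A. All siMEF2A values were above scrambled. The means were 3.64 ± 0.814 and 5.08 ± 0.308 FPKM (SD, n = 2 each), 139% of scrambled. The log2 difference of 0.40 (SE 0.15) did not pass (limma adjusted p = 0.385) and was 0.22 without scrambled replicate 1. ADAM10 and ADAM17, the proteases known to release fractalkine from the membrane, were expressed at 14.8 and 18.1 FPKM. Adam10 was at 117% and Adam17 at 115% of scrambled, with overlapping groups and a limma adjusted p of 1.0 each. Of 6 proteases that cut chemokines 4 were tested, and 0 passed, with 0 at an unadjusted p under 0.05. Mmp2, a gelatinase that cuts CXCL12, had the smallest p of them, at 123% of scrambled.

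**Figure D3:**
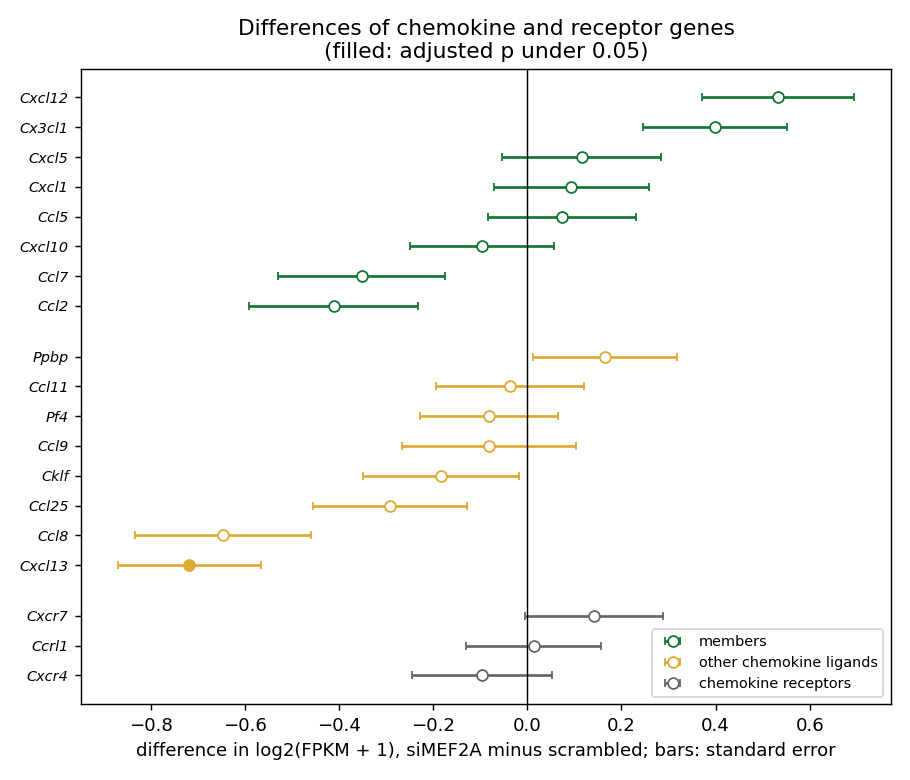
Difference in log2(FPKM + 1), siMEF2A minus scrambled, with its standard error, for the 8 chemokine genes, 8 other chemokine ligands and 3 receptors tested; filled symbols passed at an adjusted p under 0.05. Cxcl13 alone is filled, at -0.72, and Cxcl12 lies furthest above 0, at 0.53.

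Outside the 9 genes, 10 of 30 other ligands were listed and 8 tested, of which 1 fell and 0 rose. Over all genes tested 1.32% were called lower and 0.406% higher. Without overlap of the groups, 3 of the 8 were lower and 0 higher, against 9.14% and 18.8% of all genes tested. The ligand that fell was Cxcl13, whose product draws B cells, at 2.48 and 1.72 FPKM under scrambled siRNA, against 0.956 and 0.790 FPKM in siMEF2A. Its log2 difference was -0.72 (SE 0.15, limma adjusted p = 0.00466), at low FPKM. The call was lost without scrambled replicate 1 (adjusted p = 0.221), under upper-quartile scaling (0.0616), under quantile normalization (0.105) and after centring by transcript length (0.0619). The log2 difference was -0.54 without scrambled replicate 1, and -0.74, -0.71 and -0.73 under the other settings in that order. The median log2 difference of the 8 ligands was -0.13, against 0.045 over all genes tested. Ccl9 was at 58.6, Cklf at 19.5 and Ccl25 at 5.48 FPKM over the libraries, each with overlapping groups. Ccl17, with a mean of 0.412 FPKM, was under the minimum for a test.

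Lists of genes around the chemokines are given here by their counts, beside 1.73% called and 6.39% at an unadjusted p under 0.05 over all genes tested. The lists too were chosen with earlier results of these data known. Of 28 NF-kB pathway genes, which carry the signals that commonly induce chemokines, 25 were tested and 0 passed limma. At an unadjusted p under 0.05 there was 1, the endotoxin receptor gene Tlr4, at 128% of scrambled, and the next smallest p were those of Tnfaip3 at 75.02% and Ikbkg at 120%. Of 12 AP-1, HIF and related factor genes, 10 were tested and 0 passed, with 1 at an unadjusted p under 0.05, Atf3, at 61.7% of scrambled (limma adjusted p = 0.528). Cebpb and Fosl2 came next, with log2 differences of 0.21 and 0.18. A list of 15 genes covered heparan sulfate proteoglycans, which can hold chemokines, and their synthesis. Of these 14 were tested and 0 passed, with 3 of the 14 at an unadjusted p under 0.05. These were Agrn at 76.8%, Sdc1 at 127% and Gpc6 at 135% of scrambled. The medians of these lists, 0.069, 0.083 and 0.096 in the same order, stood against 0.045 over all genes tested.

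Of 28 other cytokine and inflammatory genes, 15 were tested, 1 rose and 0 fell, with 4 at an unadjusted p under 0.05. Over all genes tested 0.406% were called higher, 1.32% lower, and 6.39% had an unadjusted limma p under 0.05. The one that rose was the alarmin gene Il33, at 1.25 and 1.94 FPKM under scrambled siRNA, against 4.21 and 5.15 FPKM in siMEF2A (log2 difference 1.14, SE 0.16, limma adjusted p = 1.12e-05). The list's median log2 difference was 0.16.

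Libraries within a group differed in a way that went with transcript length, and the chemokine transcripts are of several lengths. For genes with a transcript of up to 1000 bases, the median log2 difference of replicate 2 minus replicate 1 was -0.14 in scrambled and -0.16 in siMEF2A. For those over 4000 bases it was 0.18 and 0.19. Between the groups the medians were -0.045 and 0.076 at these lengths. Ccl2 and Ccl7 have transcripts of 813 and 801 bases, Cxcl12-202 has 1878 and Cx3cl1 has 3315. Ccl5, the shortest at 532 bases, went the other way, with replicate 2 above replicate 1 by 0.42 in scrambled and 0.088 in siMEF2A. Ccl7 differed between replicates by -0.21 in scrambled and -0.45 in siMEF2A, and its difference between the groups lies between these values. Cxcl12 differed between replicates by 0.19 and 0.0069, less than between the groups. The same held in size for Ccl2, at -0.015 and -0.29 against -0.41 between the groups. It held narrowly for Cx3cl1, at 0.36 and 0.10 against 0.40. After each library was centred on genes of similar length, the log2 difference was -0.39 for Ccl2, -0.33 for Ccl7, 0.49 for Cxcl12 and 0.34 for Cx3cl1, and 0 of the 8 passed.

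**Figure D4:**
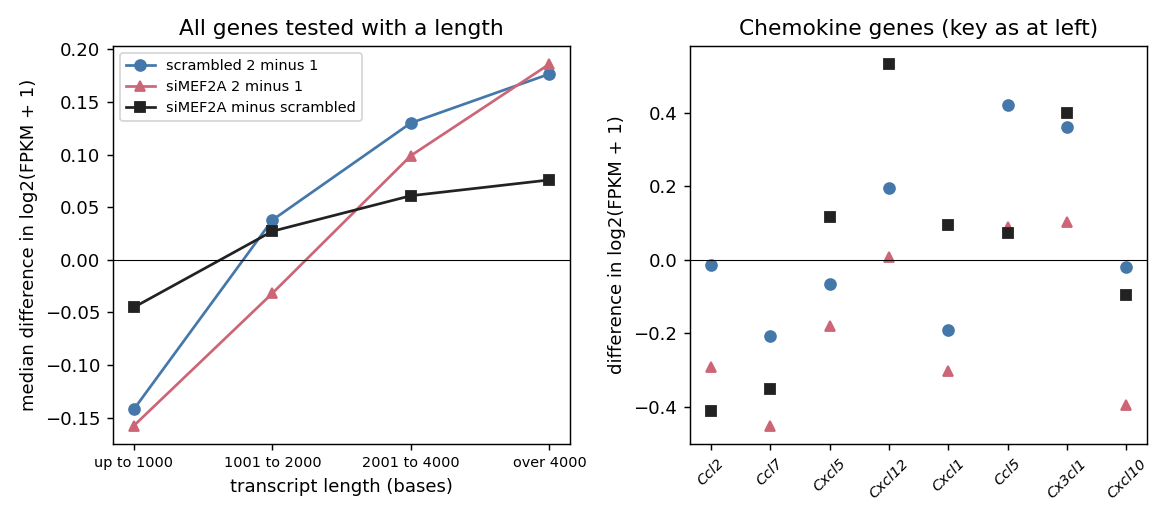
Left: median difference in log2(FPKM + 1) of all genes tested with a known length, in 4 classes of transcript length (bases), for replicate 2 minus 1 of each group and for siMEF2A minus scrambled. Right: the same 3 differences for each chemokine gene. For Cxcl12 the difference between the groups (0.53) exceeds both replicate differences (0.19 and 0.0069). In size it also does for Ccl2 and, narrowly, for Cx3cl1 (0.40 against 0.36 and 0.10), but not for the other genes.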

How the data were processed

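The deposited values were FPKM per Ensembl transcript and library, made by the authors, per the file headers. The tools named were TopHat, Bowtie, Cufflinks, Trimmomatic and CASAVA, with no versions, and the build was mm10, per the submitters' processing notes. For the annotation, settings, use of strand and any scaling between libraries, nothing is given in the sources used here. FPKM were summed per symbol, 26 small RNA symbols were dropped, and a minimum mean of 1 FPKM left 11824 genes. The test was limma 3.58.1 under R 4.3.3 (intensity trend, two-sided) on log2(FPKM + 1). The test had 2 residual and 29.0 prior degrees of freedom, so a gene's p rests mostly on the spread pooled over genes. The test was also run on data simulated from the fitted spread with independent libraries. Such data cannot show how it does with the replicate differences seen here. Lengths, positions and coding sequences came from GENCODE M21, which held 97.3% of the transcripts. The members and lists were chosen with earlier results of these data known. The genes to be named were the members, other ligands and receptors above the minimum, Mef2a, the 3 nearest patterns to the member with the largest difference and, per list, called genes or else the 3 with the smallest p. Alternatives were 3 other scalings, another pseudocount, 2 other filters, no trend, the replicate block, leaving out each library and the most abundant transcript. Centring by length and protein-coding transcripts alone were added after seeing the data.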

Additional observations from a re-analysis of the deposited data

How the results depend on the processing

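Of the 8 chemokine genes (6 at a minimum mean of 5 FPKM, which left out Cx3cl1 and Cxcl10), 0 passed under each alternative run but the replicate block, in which 3 passed, Ccl2 (limma adjusted p = 0.0438), Cxcl12 (0.00736) and Cx3cl1 (0.0322), while over all genes the block raised the calls to 217 higher and 291 lower, 4.30% of those tested. The labels do not say that equal numbers mark a shared culture or day, and the file headers number the libraries differently. Differences of replicate 2 minus 1 correlated across genes between the groups (Pearson's r = 0.292). Ccl8 (0.00152), Vdr, Adh1, Lbh, Agrn, Mx2 and Irf7 also passed with the block only or with the block and other settings. Ccl2, Ccl7, Cxcl5, Cxcl12 and Cx3cl1 kept their sign in each alternative in which they were tested (14 for Cx3cl1 and 15 for the others), with log2 differences of -0.56 to -0.27, -0.58 to -0.13, 0.026 to 0.20, 0.43 to 0.63 and 0.22 to 0.58. Ccl5, Cxcl1 and Cxcl10 changed sign in 1 or 2 alternatives without a call.

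Genes called higher, 48, were 14 under median-ratio scaling, 13 under upper-quartile scaling, 11 under quantile normalization, 28 with a pseudocount of 0.1, 29 without a filter, 24 without a trend, 15 after centring by length and 76 with protein-coding transcripts alone. Genes called lower, 156, were 99 at a minimum mean of 5 FPKM. Of all calls 76.5% were lower, against 90.4% to 90.7% under the 3 scalings. Leaving out single libraries gave 41 to 74 higher, the most without scrambled replicate 2, and 137 to 159 lower. Pathway list genes called, 2, were 1 under upper-quartile scaling, quantile normalization, a minimum of 5 FPKM and centring by length, 4 without a filter, 9 with the block and 1 to 4 without single libraries. Depth was known only as a ratio between libraries, so no counting interval could be given for low genes such as Cxcl10.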
